A study of Mus musculus with 4 samples.

Results

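Gene-dense autosomal bins are the 40 kb pieces of the mouse genome in which 4 or more different protein-coding genes start. They were examined in Hi-C maps of male mouse embryonic stem cells (mESCs), pluripotent cells derived from the early embryo. Members, the bins studied here, were chosen by start sites in the GENCODE vM1 gene annotation of the mm9 build. No contact value entered that count, though earlier results of these data were known. A bin was taken if it lay on an autosome, was kept in both maps, and held 4 or more start sites, where symbols that begin with Olfr, Vmn, Hist, Pcdh, Krt or Hox did not count. Of 58938 autosomal bins kept in both maps, 309 met the rule, which is 0.524% of these bins. A further 3 bins with 4 or more start sites were not kept in both maps and have no value here. The 309 bins held the starts of 1380 genes, 7.02% of the 19664 counted autosomal genes.

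Hi-C joins DNA ends that lie close together in the nucleus and counts the joined pairs by sequencing. A contact here is such a pair between 2 bins. There were 2 libraries each from wild-type (WT) cells and from cells labelled as Firre knockouts. Firre is a long non-coding RNA gene of the X chromosome. The methods describe the libraries as technical duplicates, and each group was given as 1 pooled matrix, called a map below, so no difference between the groups has a replicate check. The WT cells were the N3 line, grown in 2i medium, which keeps mESCs in the naive state by inhibiting differentiation signals. The Firre KO cells grew in 2i medium together with irradiated feeder fibroblasts that were depleted before use. A passage of the study's results has both cultures on feeders. Genotype and culture therefore cannot be told apart. All intervals below are 95% intervals. Those of contacts cover counting error only. Wilson intervals of shares of bins treat bins as the units and hold no counting error of reads. Read pairs without molecular identifiers are not independent molecules.

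The WT map held 65611035 read pairs and the map labelled Firre KO held 46635652. The share of read pairs between chromosomes was 16.1% in WT and 35.6% in the other map, a difference of the whole maps that touches every comparison between them. The 40 kb bin that lies wholly inside Firre (listed in the annotation as 6720401G13Rik), chrX:47920001-47960000, had 1550 read pairs within its chromosome for WT and 1144 in the map labelled Firre KO. The median X bin had 422.5 and 362.5. The deletion was thus not seen as a loss of reads, and the group is called by its label throughout.

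Gene-rich stretches of mammalian chromosomes are mostly active, early replicating and rich in G and C. In the nucleus they gather in the open A compartment, away from the lamina, and meet other active stretches, while gene-poor heterochromatin meets itself. Highly expressed gene neighbourhoods often sit at borders between topologically associating domains (TADs), stretches whose loci contact each other more than their surroundings. Many short genes with broad cellular functions lie close together in such places, and tandem arrays of related genes form a different kind of crowded neighbourhood.

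The stretches at 5 annotated gene starts show how different the members are. They are read from the mm9 genome in the direction of the gene, from 250 bases before the annotated start to the 30th base of the transcript, with every CpG dinucleotide in capitals. CpG-rich promoters are typical of broadly used genes, and CpG-poor ones of tissue-restricted genes. Gm10722 is the first gene of the bin with the most start sites. Med22 is that of the most crowded bin classed as a family by symbols alone, here Surf1, Surf2 and Surf4. Shared symbols need not mean related genes. Ly6g5c is the first gene of the most crowded bin whose symbols are neither mostly shared nor mostly of predicted genes. Plcb3 and Reg3b come from the bins with the highest and the lowest share of contacts with other chromosomes outside predicted genes, by the mean of both maps, a choice made after these shares were known, as was that of Ly6g5c.

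Gm10722, chr9:3000672-3000951, plus strand: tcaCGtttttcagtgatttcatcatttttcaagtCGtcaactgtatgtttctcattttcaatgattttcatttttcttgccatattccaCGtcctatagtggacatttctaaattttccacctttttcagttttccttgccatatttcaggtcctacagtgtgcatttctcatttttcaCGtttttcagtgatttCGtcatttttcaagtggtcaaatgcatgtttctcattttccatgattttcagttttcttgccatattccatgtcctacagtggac
Med22, chr2:26766168-26766447, minus strand: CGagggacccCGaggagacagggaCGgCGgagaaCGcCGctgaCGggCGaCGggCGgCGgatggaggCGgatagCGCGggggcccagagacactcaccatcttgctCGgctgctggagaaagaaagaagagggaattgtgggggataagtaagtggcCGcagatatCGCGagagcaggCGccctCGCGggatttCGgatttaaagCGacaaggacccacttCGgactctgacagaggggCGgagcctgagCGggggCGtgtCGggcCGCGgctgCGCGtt
Ly6g5c, chr17:35244974-35245253, plus strand: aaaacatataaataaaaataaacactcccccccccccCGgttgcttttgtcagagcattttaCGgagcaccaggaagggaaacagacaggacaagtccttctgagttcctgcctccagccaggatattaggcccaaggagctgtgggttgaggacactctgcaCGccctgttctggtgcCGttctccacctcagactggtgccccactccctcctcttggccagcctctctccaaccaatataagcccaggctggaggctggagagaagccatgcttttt
Plcb3, chr19:7044250-7044529, minus strand: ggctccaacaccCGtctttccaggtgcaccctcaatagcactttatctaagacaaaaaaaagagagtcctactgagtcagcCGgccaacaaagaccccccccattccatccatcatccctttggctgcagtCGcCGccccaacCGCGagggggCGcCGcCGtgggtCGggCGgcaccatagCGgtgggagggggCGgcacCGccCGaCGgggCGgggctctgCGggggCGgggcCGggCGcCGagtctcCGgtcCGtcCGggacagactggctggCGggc
Reg3b, chr6:78320629-78320908, plus strand: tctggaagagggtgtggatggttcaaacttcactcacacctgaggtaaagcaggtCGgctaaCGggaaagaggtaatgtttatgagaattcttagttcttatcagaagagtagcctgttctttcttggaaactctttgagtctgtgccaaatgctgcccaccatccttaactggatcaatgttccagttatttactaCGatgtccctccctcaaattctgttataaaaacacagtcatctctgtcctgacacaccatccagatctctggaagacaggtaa

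These stretches held 5, 32, 4, 26 and 3 CpG in the order given. Med22, a subunit of the Mediator complex, and Rpl7a, a ribosomal protein gene, start 87 bases apart and point away from each other, so the stretch shown also holds the Rpl7a start. Such divergent pairs were common among the members. Of the 1380 genes, 241 (17.5%) had a start on the other strand within 1 kb upstream, against 7.01% of the other 18284 genes. Crowding of start sites, which the rule selects, makes such pairs more likely.

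The members fell into 3 kinds by their gene symbols. In 35 family bins, 50% or more of the symbols shared the letters before their first digit, where at least 3 letters were required, among them kallikreins, bitter taste receptors, interferons and haemoglobins. In 13 predicted bins, taken from those outside the family rule, 50% or more of the symbols were Gm numbers. These are names given to predicted genes, and the kind was set apart after values were seen. The other 261 are called mixed bins, and they include a bin of S100a genes, whose symbols have too few letters for the family rule. The genes of the members were short, with a median length of 5.51 kb (quartiles 2.63 and 10.8) against 19.8 kb for the other counted genes. The rule, which asks for 4 or more starts in 40 kb, itself favours short genes. The number of CpG over the 300 bases from 250 before to 50 after the start had a median of 16 in mixed bins, 5 in family bins and 3.5 in predicted bins. Promoters with under 5 CpG made up 15.2%, 45.6% and 51.4%.

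Chromosomes 7, 11 and 17 held the most members, with 43, 41 and 35. Chromosomes 12 and 13 held 2 and 3. Most bins stood alone: 211 had no gene-dense neighbour, and the longest run was 4 bins at chr11:99520001-99680000, all of predicted genes. The number of start sites was 4 in 208 bins, 5 in 75, 6 in 18 and 7 or more in 8. Median GC content was 49.98% in members and 41.4% in all autosomal bins, and HindIII, the enzyme that cut the chromatin, had a median of 9 sites per member and 13 per bin overall. GC content and cutting sites thus differed with gene density. A member had a median of 2325 read pairs in WT and 1844 in the map labelled Firre KO, against 1828 and 1328 for all bins.

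Gene lists, drawn up by gene symbol, show which genes live in these bins. Of 77 genes for cytoplasmic ribosomal proteins, 13 (16.9%) started in members, and of 77 for mitochondrial ribosomal proteins, 12 (15.6%) did. Complex I of the respiratory chain had 7 of 40 (17.5%) and the proteasome, which degrades tagged proteins, 9 of 49 (18.4%), counting Psmc3ip, which shares the symbol's start but is a meiotic recombination factor. All of these shares lay above the 7.02% of all counted genes. Zinc finger (Zfp) genes had 14 of 359 (3.90%), cytochromes P450 1 of 98 (1.02%), defensins 3 of 53 (5.66%) and serpins, mostly protease inhibitors, 0 of 59. Kallikreins, a tandem array of serine proteases, had 13 of 28 (46.4%), Ly6 genes 7 of 16 (43.8%) and genes with H2- symbols, mostly of the major histocompatibility complex, 5 of 35 (14.3%). Of these 5, H2-Ke2 and H2-Ke6 lie in that region but code for a prefoldin subunit and a steroid dehydrogenase. Of the 17 pluripotency genes of the list that were counted, Pou5f1 was in a member, at chr17:35640001-35680000. The other 16 were not.

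Contacts between members of different chromosomes were far above the average of their chromosome pairs. Each observed sum was divided by the sum expected if every pair of kept bins of the same 2 chromosomes had their mean contact. Over 43869 bin pairs the ratio was 3.79 (3.57 to 4.01; 1387 read pairs) in WT and 3.35 (3.19 to 3.50; 2175 read pairs) in the map labelled Firre KO. The intervals of both lay well above 1. The ratio rose with the number of start sites of the partner. In WT, members met bins of 0, 1, 2 and 3 start sites at 1.08, 1.73, 2.46 and 3.12 times expected, and in the map labelled Firre KO at 1.05, 1.62, 2.25 and 2.84. The counting intervals of successive classes did not overlap in either map. A single member, at chr9:3000001-3040000, holds many of the read pairs with 1 bin of 2 start sites, and without it that class stood at 2.39 and 2.19.

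**Figure D1:**
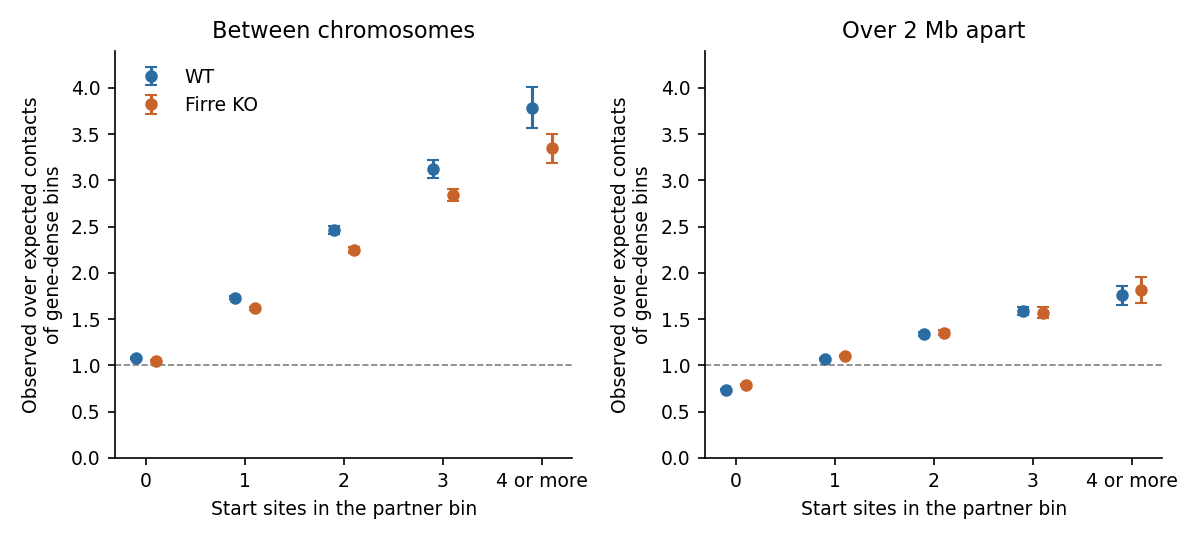
Observed over expected contacts of gene-dense bins (y axis) with bins grouped by their number of start sites (x axis), between chromosomes on the left and over 2 Mb apart on the same chromosome on the right. Points are the values in WT and in the map labelled Firre KO, bars are 95% counting intervals, and the dashed line marks 1. Between chromosomes the values climb from 1.08 to 3.79 in WT.

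Bins just outside the rule behaved in a graded way. Bins with 3 start sites met each other across chromosomes at 2.74 times expected in WT and 2.44 in the map labelled Firre KO, and bins with 4 start sites at 3.73 and 3.40. Bins with 5 or more reached 4.04 (3.37 to 4.71) and 3.22 (2.79 to 3.66). Bins with 0 start sites met each other at 0.935 and 0.955. The kinds of bin are given next. Mixed bins met each other at 4.36 (4.08 to 4.63) in WT and 3.88 (3.68 to 4.07) in the other map. Family bins gave 2.62 (0.834 to 4.401) and 1.43 (0.493 to 2.37), each from 10 read pairs. The WT intervals of mixed and family bins overlap, and those of the map labelled Firre KO do not.

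Between the maps, the log2 ratio of Firre KO to WT was -0.18 for members (-0.29 to -0.07). The difference is outside counting error, but without replicates it cannot be set against the spread between cultures. For pairs of bins with 0, 1, 2 and 3 start sites it was 0.03, -0.10, -0.14 and -0.17. Bins with 4 had -0.13 (-0.30 to 0.03) and bins with 5 or more -0.33 (-0.63 to -0.02). The order of the maps turned in uncorrected read pairs, with 4.56 in WT and 4.70 in the other map.

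GC content moved with these values. Restricted to bins of the middle GC range of the members (47.5 to 51.7%), for members and background alike, the ratio was 1.89 (1.68 to 2.10) in WT and 2.02 (1.84 to 2.19) in the map labelled Firre KO, over 155 members. An expected value built from the total of each bin across chromosomes gave 2.24 and 2.19. Members thus stayed above 1 in both maps under either setting, at a lower level, and the order of the maps turned in the first of them.

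The pattern was general across the genome. Members of each of the 19 autosomes met those of the other autosomes above 1 in both maps. The lowest value in WT was 2.04 (1.22 to 2.86), on chromosome 18, and the highest was 5.05 (4.04 to 6.06), on chromosome 14. In the map labelled Firre KO, chromosome 13 was lowest at 1.83 and chromosome 3 highest at 4.10. Chromosome 14 had the largest gap between the maps, 5.05 against 2.99 (2.42 to 3.56). Of the 171 chromosome pairs, 134 lay above 1 in WT and 145 in the other map, with a median of 4 and 7 read pairs, and 27 and 20 had none.

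**Figure D2:**
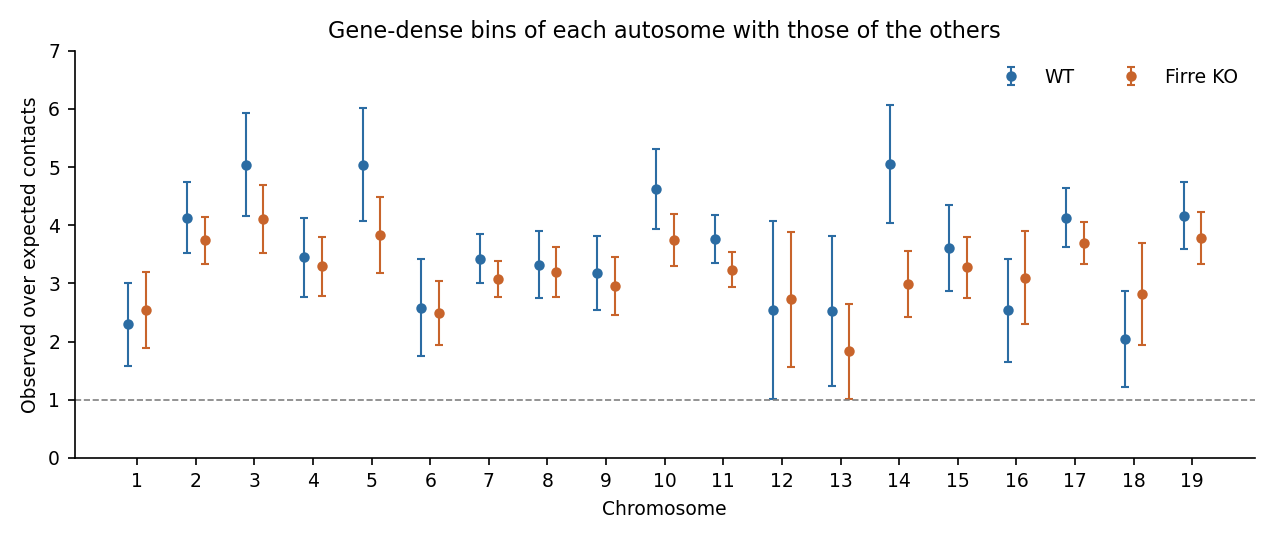
Observed over expected contacts (y axis) of the gene-dense bins of each autosome (x axis) with the gene-dense bins of all other autosomes, in WT and the map labelled Firre KO. Bars are 95% counting intervals, the dashed line marks 1, and every point lies above it.

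Single members could be measured only coarsely, with a median of 8 read pairs with other members in WT and 13 in the map labelled Firre KO. No member reached 50 in each map, the number set for naming bins by this value. In WT, 242 of 309 members (78.3%) lay over 2 times expected with gene-dense bins of other chromosomes, against 22.0% of all bins. In the map labelled Firre KO it was 233 (75.4%) against 19.0%. Both maps together had 209 members (67.6%) over 2 times expected, against 9.38% of all bins.

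On their own chromosome, members also met each other above the average at long range. Over 2 Mb apart, expected contacts came from the average of a chromosome at equal distance. The 2902 member pairs reached 1.76 (1.65 to 1.86; 1382 read pairs) in WT and 1.81 (1.67 to 1.95; 813 read pairs) in the map labelled Firre KO. The log2 ratio between the maps was 0.04 (-0.10 to 0.18), within counting error. This depended on the setting: in uncorrected read pairs the values were 2.14 (2.03 to 2.26) and 2.51 (2.34 to 2.68), and with bins scaled to equal totals within chromosomes 2.04 (1.92 to 2.16) and 2.48 (2.29 to 2.68), with the map labelled Firre KO higher. Members and bins of 0 start sites met below the average, at 0.736 and 0.789. Mixed bins gave 2.02 and 2.10 with each other.

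The excess depended strongly on distance. From 0.04 to 0.2 Mb, member pairs lay at 1.28 in WT and 1.21 in the map labelled Firre KO. From 0.24 to 0.48 Mb they lay at 1.01 (0.978 to 1.05) and 0.891 (0.848 to 0.934). From 0.52 to 2 Mb they fell below the average, to 0.795 (0.757 to 0.834) and 0.588 (0.549 to 0.627). From 2 to 5 Mb the values were 0.951 and 0.714. From 5 to 10 Mb they rose to 2.19 (1.86 to 2.51) and 1.956 (1.56 to 2.36), and over 50 Mb they were 2.25 and 2.44. Members and bins of 0 start sites stayed below 1 in every band from 0.24 Mb on. Their values were 0.607 and 0.444 from 0.52 to 2 Mb, and 0.795 and 0.905 over 50 Mb. Gene-dense bins were thus poor in contacts of either sort at 0.52 to 2 Mb in both maps, and met each other above the average from 5 Mb on.

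**Figure D3:**
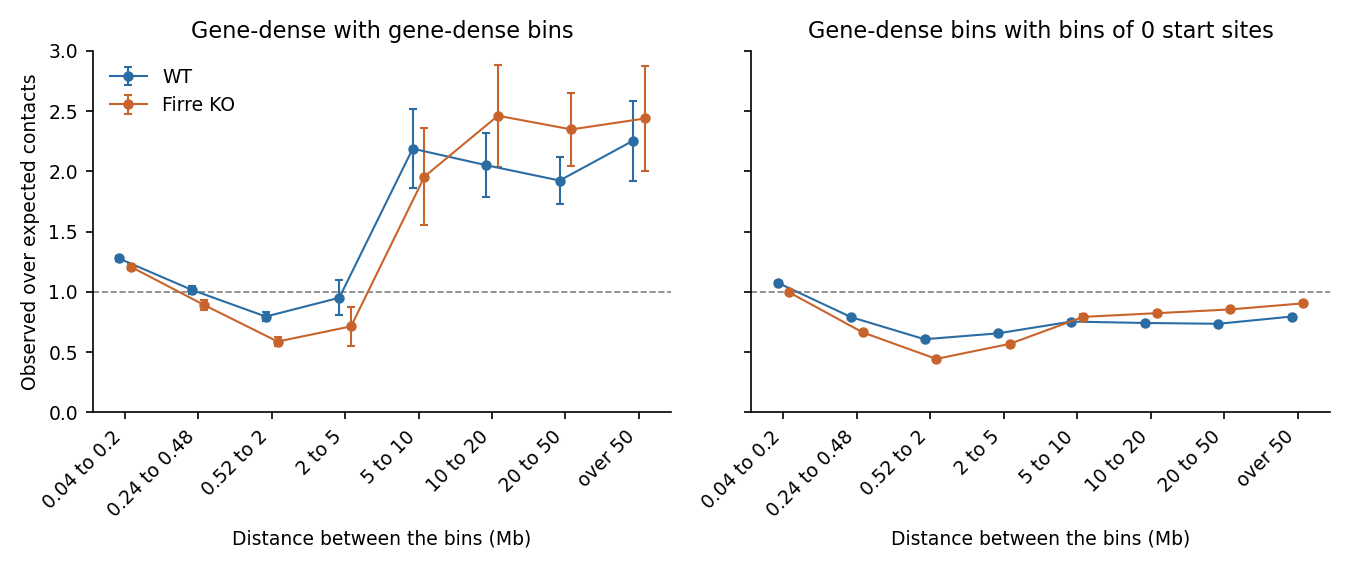
Observed over expected contacts (y axis) by the distance between the bins (x axis, bands in Mb) for pairs of gene-dense bins on the left and for gene-dense bins with bins of 0 start sites on the right. Points are the values in WT and the map labelled Firre KO with 95% counting intervals, and the pairs of gene-dense bins pass from below 1 at 0.52 to 2 Mb to about 2 from 5 Mb on.

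Over all distances above 10 Mb, member pairs had 2.02 (1.88 to 2.16) in WT and 2.40 (2.19 to 2.62) in the map labelled Firre KO, and these intervals do not overlap. In the single bands they do. From 10 to 20 Mb member pairs had 2.05 (1.78 to 2.32) in WT and 2.46 (2.04 to 2.88) in the other map, and from 20 to 50 Mb 1.92 (1.73 to 2.12) and 2.35 (2.05 to 2.65). At 0.52 to 2 Mb the intervals do not overlap, and the map labelled Firre KO was lower. Chromosomes differed. Chromosome 17 had 2.34 and 2.13, and chromosome 7 had 2.001 and 2.121. Chromosome 19 had 1.495 and 0.9996 (0.703 to 1.297), and chromosome 10 had 1.37 and 1.03 (0.580 to 1.48). Chromosome 3 stayed at 0.98 (0.67 to 1.28) and 0.99 (0.62 to 1.37), and in all 15 of 19 autosomes lay above 1 in each map. No pair of members over 2 Mb apart had 5 or more read pairs in both maps, so no pair is named.

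Contact decay of the members was steep at short range. Between 0.08 and 0.8 Mb the slope of contact against distance on log scales was -1.26 for members in WT and -1.31 in the map labelled Firre KO. For all autosomal bins it was -0.93 and -0.87. Members kept 42.2% of their contacts within the chromosome at 0.04 to 0.2 Mb in WT and 41.8% in the other map, against 32.2% and 31.2% for all bins. In return they had less at 0.24 to 2 Mb, 25.5% and 24.02% against 31.5% and 35.4%. Contacts over 2 Mb made up 32.2% (32.1 to 32.4) in WT, below the 36.3% of all bins, and 34.2% (34.0 to 34.4) in the map labelled Firre KO, above the 33.4% of all bins. The order of members and all bins thus differed between the maps, and it depended on the setting. In the map labelled Firre KO it turned with equal totals within chromosomes, to 31.9% against 33.3%, and with 5 or more start sites, to 33.1% (32.8 to 33.5) against 33.4%, a difference within counting error. In WT it turned in the middle GC range of the members, with partners restricted too, where members had 15.2% (15.004 to 15.44) and all bins 14.8%.

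The insulation score measures how many contacts pass over a bin. It is the log2 of the contacts between the 480 kb on each side of the bin, relative to the mean of the chromosome, so a negative score marks a bin over which few contacts pass. Members had a median score of -0.57 in WT (quartiles -0.84 and -0.33) and -1.07 in the map labelled Firre KO (-1.54 and -0.67). All autosomal bins had medians of -0.05 and -0.08. In the middle GC range the gap was smaller, with -0.53 in members and -0.33 in all bins of that range in WT, and -0.998 and -0.61 in the other map. The score fell with the number of start sites up to 4, from 0.03 in bins with 0 to -0.30, -0.43, -0.53 and -0.57 in bins with 1, 2, 3 and 4 in WT. In the other map it fell from 0.07 to -0.51, -0.73, -0.94 and -1.09. Bins with 5 or more were not lower, at -0.53 and -1.03. Below 0 were 282 of the 299 members with a score in both maps in WT (94.3%, against 54.4% of all bins), and 292 in the map labelled Firre KO (97.7%, against 54.0%). All 253 mixed bins with a score were below 0 in the latter.

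**Figure D4:**
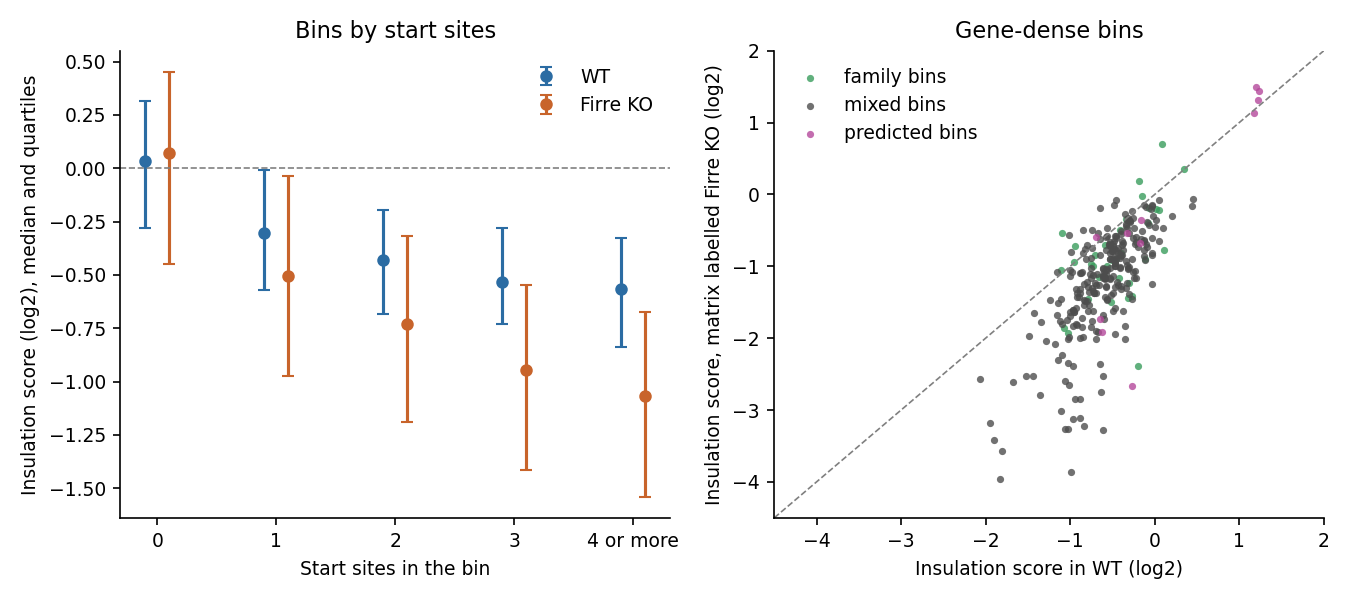
Left, median insulation score with quartiles (y axis, log2) of bins grouped by start sites (x axis), in WT and the map labelled Firre KO. Right, each gene-dense bin's score in WT (x axis) and the map labelled Firre KO (y axis), coloured by the kind of bin, with the line of equal scores dashed; most points lie below the line, and 4 bins of predicted genes lie above 1 in both.

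The difference between the maps also grew with gene number. Scores of all autosomal bins were spread more widely in the map labelled Firre KO, with quartiles of -0.64 and 0.37, against -0.39 and 0.25 in WT. A wider scale lowers scores that are already negative, and the differences below were not adjusted for it. Whether members fell by more than the wider scale was not tested. The median of the score in the map labelled Firre KO minus that in WT was -0.51 in members, against -0.41 in bins with 3 start sites, -0.29 with 2, -0.20 with 1 and 0.00 with 0. A fall of over 0.5 was seen in 152 of 299 members (50.8%, Wilson interval 45.2 to 56.5), against 16.1% of all bins. A rise of over 0.5 was seen in 2 members (0.669%), against 5.93% of all bins. Mixed bins had a median difference of -0.53, family bins -0.32 and predicted bins -0.20.

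The squares under the scores held fewer read pairs in the map labelled Firre KO, and scaling within chromosomes made the difference smaller. A score is made from the contacts of its square, so the read pairs there fall with it and are no separate measure of depth. In total, a member had a median of 2325 read pairs in WT and 1844 in the map labelled Firre KO, against 1828 and 1328 for all bins. The square over a member held a median of 1786 read pairs in WT and 798 in the map labelled Firre KO, against 1724 and 914 over all bins. Over 25% of its bin pairs were empty in 3 and 68 members (1.003% and 22.7%, against 0.306% and 7.78% of all bins). With a plain mean of the square the median difference was -0.39. With that mean on uncorrected read pairs, the WT order of members and all bins turned, at -0.090 and -0.10. A square of 6 bins gave scores of -0.19 and -0.53. With bins scaled to equal totals within chromosomes it was -0.27, against -0.04 for all bins. Within the middle GC range it was -0.48, where all bins of that range had -0.27. The part of depth, GC content and contacts between chromosomes in the difference was not tested.

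The 299 members with a score in both maps were ranked by the mean of their scores in the maps. The lowest belonged to mixed bins, 1 of which holds a series of S100a genes. At chr18:36920001-36960000, with Dnd1, Hars2, Hars (histidyl-tRNA synthetases of mitochondria and cytoplasm) and Zmat2, the score was -1.83 in WT and -3.97 in the map labelled Firre KO. Its neighbour with Cd14, Tmco6, Ndufa2, Ik and Wdr55 had -1.81 and -3.56. The squares of this pair held 533 and 646 read pairs in WT but 157 and 232 in the other map. With 55.6% and 51.4% of bin pairs empty there, the lower values are imprecise, and the plain mean gave -2.63 and -2.37. The bin of Madcam1, Gm16517, Cdc34 and Gzmm at chr10:79120001-79160000 was not ranked, since it had a score of -1.75 in WT and none in the map labelled Firre KO. Its plain mean gave -1.24 and -2.93, the latter lower than that of the ranked pair. Its WT square held 586 read pairs, with 21.5% of bin pairs empty. A square whose interquartile mean is nil has no log2 score, so the emptiest squares drop out of the ranking. Other ranked bins came close. At chr3:90400001-90440000, which holds S100a3, S100a4, S100a5 and S100a6, genes for calcium-binding proteins, the scores were -1.95 and -3.18. At chr10:128240001-128280000, with 1110012D08Rik, Dnajc14, Ormdl2 and Sarnp, they were -1.90 and -3.41. In the map labelled Firre KO 50.7% and 54.2% of bin pairs of these squares were empty. Their plain means were much less low, at -1.26 and -1.65 for the S100a bin and -1.09 and -1.53 for the Dnajc14 bin, and by that measure other members ranked below both, such as the bin of Trappc6b, Pnn, Rpl21-ps3 and Mia2 with -1.43 and -1.67. At chr10:126480001-126520000, the place of Cyp27b1, which activates vitamin D, and of Cdk4, a kinase of the cell cycle, they were -0.99 and -3.87.

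The highest scores belonged to the 4 neighbouring bins of predicted genes at chr11:99520001-99680000. They ran from 1.17 to 1.23 in WT and from 1.13 to 1.498 in the map labelled Firre KO, and their GC content, 40.3 to 42.8%, was low for members. Contacts passed over these bins more often than over the average bin of their chromosome. By the mean of both maps, the next was the chemokine bin at chr11:81840001-81880000, at 0.09 and 0.70. It holds Ccl2, Ccl7 and Ccl11, which attract immune cells, and was also the member with the largest rise, 0.62. In WT alone other members were higher, such as the bin of Sprr2 genes at 0.345. The other rise of over 0.5, at chr17:57160001-57200000 with Khsrp, Slc25a41, Crb3 and Slc25a23, was from -1.10 to -0.54. The bin of Lim2, Nkg7, Cldnd2, Etfb and Vsig10l at chr7:50680001-50720000 came next, from -0.65 to -0.19.

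Among members with a score in both maps, the largest falls were those of Cdk4 and Cyp27b1 above, of chr8:73360001-73400000 and of chr4:88440001-88480000. The chromosome 8 bin holds Arrdc2, Kcnn1, A230052G05Rik and Ccdc124 and passed from -0.61 to -3.28. The chromosome 4 bin holds 5 Gm genes with Ifna7, Ifna11 and Ifna6, type I interferons, and passed from -0.27 to -2.66. These 3 squares held 1526, 1647 and 1418 read pairs in WT, and 318, 348 and 162 in the map labelled Firre KO. Falls remained with the plain mean, at -1.40, -1.56 and -1.65. The unranked Madcam1 bin, with 586 read pairs in its WT square, fell further there, by 1.70. Interferon genes are near-identical copies, among which reads can be hard to place, and this was not tested here.

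A called boundary is a local minimum of the insulation profile. In WT 51 of 299 members (17.1%, Wilson interval 13.2 to 21.7) had one within 1 bin, against 11.2% of all bins. In the map labelled Firre KO 54 members (18.1%, 14.1 to 22.8) did, against 10.3%. In both it was 26 members (8.70%, 6.003 to 12.4) against 4.63%. Bins with 1 start site had 15.2% and 15.5%, bins with 2 had 19.1% and 18.2%, and bins with 3 had 18.9% and 21.0%. All of these lay within the members' intervals, and bins with 0 lay below them, at 9.65% and 8.49%. The share of all bins lay within the interval of the dense bins in some settings. With 5 or more start sites this held in WT, at 16.5% (10.4 to 25.1), in the map labelled Firre KO, at 14.4% (8.80 to 22.8), and in both, at 7.22% (3.54 to 14.2). In WT it also held in the middle GC range, at 16.7% (11.6 to 23.4) against 12.03%, in uncorrected read pairs with a plain mean, at 12% (8.80 to 16.2) against 10.6%, and for a boundary in the same bin, at 5.69% (3.58 to 8.92) against 3.73%.

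Members sent a large share of their contacts to other chromosomes. Of all contacts of members with other bins, 23.1% (23.0 to 23.2) were with other chromosomes in WT and 47.4% (47.3 to 47.5) in the map labelled Firre KO, against 17.2% and 37.8% for all autosomal bins. Above the median of all bins in both maps were 286 of 309 members (92.6%), against 39.1% of all bins. The median share per bin rose with gene number, from 15.9% with 0 start sites to 18.9, 20.8, 22.1 and 23.2% in WT. In the map labelled Firre KO it rose from 36.1 to 40.5, 43.2, 46.0 and 47.5%. The median gain between the maps was 24.5 percentage points in members and 20.6 in all bins, whose medians were 16.6% and 37.2%. Relative to the WT median, all bins gained more than members. In the middle GC range, members stood at 23.2% against 22.0% for all bins of that range in WT, and at 47.3% against 43.8% in the other map.

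**Figure D5:**
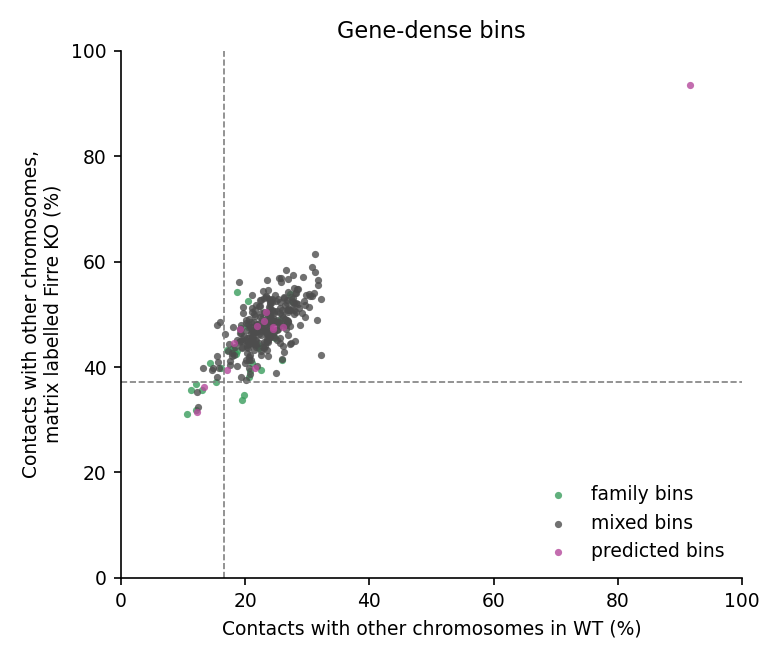
Share of contacts with other chromosomes of each gene-dense bin in WT (x axis, %) and the map labelled Firre KO (y axis, %), coloured by the kind of bin, with the medians of all autosomal bins dashed. Nearly all points lie in the upper right part, and 1 bin of predicted genes stands apart at 91.7% and 93.6%.

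The bin that stands apart is chr9:3000001-3040000, at the start of the assembled chromosome. It has 12 start sites, the most of any member, all of predicted genes, a GC content of 35.5% and no HindIII site. Most of its read pairs between chromosomes, 67.7% in WT and 63.9% in the map labelled Firre KO, joined it to the single bin chr2:98480001-98520000. Its read pairs numbered 19892 in WT and 1740 in the other map. The results with predicted bins left out were 3.94 and 3.50 for contacts between chromosomes. The printed Gm10722 stretch comes from this bin. Whether it works as a promoter, and whether reads are placed correctly in this bin, was not tested.

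Among the other members, the highest shares by the mean of both maps were those of bins on chromosomes 19 and 15. In WT alone, bins on chromosomes 8 and 4 were higher, at 32.28% and 32.23%. The bin of Plcb3, Ppp1r14b, Fkbp2, Vegfb, Dnajc4, Nudt22 and Trpt1 at chr19:7040001-7080000 had 31.2% in WT and 61.5% in the map labelled Firre KO. Plcb3 is a phospholipase C and Vegfb a growth factor. The CpG-rich promoter of Plcb3 is printed above. The nearby bin of Trmt112, Prdx5, Esrra and 1700019N12Rik had 30.7% and 58.9%. The bin of Map3k12, Tarbp2, Npff, Atf7 and Gm10337 on chromosome 15 had 31.2% and 58.0%. Family bins had a median share of 19.8% in WT and 43.1% in the map labelled Firre KO. That is below all members, at 23.2% and 47.5%, but above all autosomal bins, at 16.6% and 37.2%. Among the lowest shares of members were those of some bins of related genes. Reg3b, Reg3d, Reg3a and Reg2, secreted proteins of gut and pancreas, had 10.5% and 31.1%. The bitter taste receptors Tas2r104, Tas2r105, Tas2r106 and Tas2r107 had 12.04% and 31.76%, and the bin of Sprr2 genes of the skin barrier had 11.2% and 35.6%. Among the 5 lowest were also a bin of predicted genes on chromosome 8, with 12.3% and 31.5%, and the bin of Glul, which makes glutamine, with 12.5% and 32.3%. All of these bins were chosen by their share, so their distance from each other is no finding.

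The bins with the most start sites after this chromosome 9 bin are described next. The median member had 3.47 times the expected contacts with other members in WT and 3.37 in the map labelled Firre KO. At chr17:35240001-35280000, with 9 start sites that include Csnk2b, Apom and Bag6, the share was 21.7% and 48.0%, and the contacts with other members were 5.27 times expected (2.72 to 9.21; 12 read pairs) in WT and 3.08 (1.64 to 5.27; 13 read pairs) in the map labelled Firre KO. At chr2:25080001-25120000, which holds Tubb2c, a tubulin, with Slc34a3, Gm757, Rnf208, 2310002J15Rik, Tmem203, Ndor1 and Tprn, contacts with members were 4.09 (1.77 to 8.06) and 5.64 (3.57 to 8.46) times expected. The interferon bin on chromosome 4 lay below the median member in both maps, with 0 read pairs with members in WT. In the map labelled Firre KO it had 2 read pairs, at 0.584 times expected (0.0707 to 2.11).

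Further bins among the 10 most crowded gave these values. At chr9:107440001-107480000, with Cyb561d2, Nprl2, Zmynd10, Rassf1, Tusc2, Hyal2 and Hyal1, the score was -0.89 in WT and -2.85 in the map labelled Firre KO, where its square held 236 read pairs. Its contacts with members were 3.43 (1.87 to 5.75) and 2.27 (1.32 to 3.64) times expected, below the median member in both maps. Hyal1 and Hyal2 break down hyaluronan, and Rassf1 is a tumour suppressor. At chr7:31320001-31360000, with Psenen, a subunit of gamma-secretase, and Lin37, U2af1l4, Arhgap33, Hspb6, BC053749 and Tmem149, contacts with members were 3.79 and 4.61 times expected. At chr19:6080001-6120000, which holds Cdca5, a protector of cohesin, they were 5.074 and 3.797. At chr5:23920001-23960000, with Cdk5 and Slc4a2, they were 5.93 and 4.53, and at chr2:26760001-26800000, with Med22, Rpl7a, Surf1, Surf2, Surf4 and Gm711, 5.03 and 2.85. At chr19:7040001-7080000, with Plcb3, they were 7.33 and 2.77. All of these intervals of contacts exclude 1, and those of the 2 maps overlap for each bin.

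Promoter type went with these values in a description made after they were seen. The 20 members whose promoters had a mean of under 5 CpG had 1 read pair with each other across chromosomes in each map, 0.659 (-0.632 to 1.95) and 0.583 (-0.560 to 1.73) times expected, which is too few to place them. The 120 with 5 to under 15 reached 3.54 (2.998 to 4.08) times expected in WT and 2.88 (2.51 to 3.26) in the map labelled Firre KO. The 169 with 15 or more reached 4.50 (4.05 to 4.94) and 4.08 (3.78 to 4.39). The first group also had a median GC content of 42.5%, against 50.03% and 50.41%, so promoter CpG and GC content moved together there. Median insulation scores were -0.14, -0.56 and -0.59 in WT, and -0.29, -1.03 and -1.14 in the other map.

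The gene lists were also compared within the members. Bins with cytoplasmic ribosomal protein genes had a median share between chromosomes of 23.9% in WT and 48.4% in the map labelled Firre KO, and those with mitochondrial ribosomal protein genes 24.94% and 49.04%. All members had 23.2% and 47.5%. Complex I bins had 23.8% and 52.6%, bins with zinc finger genes 21.8% and 47.9%, and proteasome bins, below all members in both maps, 22.3% and 44.8%. Median contacts with members of other chromosomes were 3.47 and 3.37 times expected in all members. Cytoplasmic ribosomal protein bins had 4.70 and 4.08, and mitochondrial ones 4.12 and 4.22. Proteasome bins had 3.63 and 2.58, complex I bins 3.36 and 2.57, and zinc finger bins 2.96 and 2.05. These medians rest on 12 bins for each ribosomal list, 8 for the proteasome, 7 for complex I and 10 for zinc fingers. The median member had only 8 such read pairs in WT and 13 in the map labelled Firre KO. No interval was computed for the lists, so their order is not resolved. The 4 kallikrein bins had 20.1% and 36.4%, with median insulation scores of 0.00 and -0.25. Their contacts with members were 1.72 and 0.85 times expected. The 4 bins with H2- genes had insulation medians of -1.06 and -1.72, and the Pou5f1 bin, home of the pluripotency factor, -0.57 and -1.04 with a share of 25.6% and 52.3%.

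Values of single members were compared between the maps, which share no library. Across members, the share between chromosomes had a Pearson r of 0.77 and a Spearman rho of 0.65 between the maps (n = 309). Both include the chromosome 9 bin that stands apart at 91.7% and 93.6%, and they were not recomputed without it. For the insulation score, r was 0.74 and rho 0.69 (n = 299). All bins gave 0.77 and 0.75 for the share and 0.82 and 0.83 for the score. These are descriptions over bins that share the genome, its base composition and its cutting sites. Between the score and the share, members had an r of -0.03 and a rho of -0.0046 in WT (n = 301), and -0.29 and -0.36 in the map labelled Firre KO (n = 299). All bins gave -0.23 and -0.23 in WT, and -0.38 and -0.36 in the other map.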

How the data were processed

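Hi-C matrices of WT and Firre KO male mESCs were analysed, 1 pooled matrix per group. The authors mapped the reads to mm9, binned them at 40 kb and applied iterative correction with HiC-Pro 2.7.8, per the submitters' processing notes and the study's methods. Each deposited entry is a corrected contact signal between a pair of bins, and within a matrix the totals of the kept bins were equal. The deposited bin tables, which hold bin numbers and no other measure, listed the same 66382 bins, and chromosome lengths equalled those of the mm9 reference.

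Read pairs were recovered from the corrected values, each of which is a whole number multiplied by the weights of its bins, and 100% of entries came within 0.05 of a whole number. They gave depth (65611035 and 46635652 read pairs) and counting intervals. Correction scales every bin to the same total, so a loss of reads at a bin is not visible in the corrected signal, and contacts leaving the chromosome take from those within it.

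Gene starts came from GENCODE vM1, and base composition and HindIII sites from the mm9 sequence. Insulation used an own implementation with the study's settings apart from smoothing: square 480 kb, delta span 320 kb, interquartile mean, strength above 0. Scores were smoothed over a window centred on the bin, which was 1 bin wider than the study's 160 kb. Expected contacts were means per chromosome and distance, or per chromosome pair. Intervals used the recovered read pairs, those of shares of bins were Wilson intervals, and those of single bins exact Poisson intervals. With 1 matrix per group no test was run, and bins are not replicates. The measures were tested on simulated data. Python 3.11.15, numpy 2.4.6, pandas 2.3.3 and scipy 1.17.1 were used.

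Bins named were the 10 with the most start sites (ties in genome order), the 5 highest and 5 lowest in insulation score (mean of both matrices) and the 3 largest and 3 smallest differences of it. Rules on contacts between chromosomes (at least 50 read pairs) and on member pairs (at least 5 read pairs) named none. The kind of predicted bins, the ranges of promoter CpG and bins named by their share between chromosomes were chosen after values were seen. The members and lists were chosen with earlier results of these data known. Alternatives changed the start-site minimum, start definition, correction, neighbours, families, GC range, chromosome ends, square, expected value, distance and summary.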

Additional observations from a re-analysis of the deposited data

How the results depend on the processing

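No paired analysis was possible because each group is 1 pooled matrix that carries no replicate number, and for the same reason leaving out a library was not possible. Of 181 values recomputed under alternatives, 90 lay inside the 95% interval given to the main value and 91 lay outside. That interval came from read counting for contacts, from the Wilson method over bins for boundaries, and from the ranks of bins for insulation medians. Some alternatives were chosen after seeing the data: leaving out bins of predicted genes or the crowded chromosome 9 bin alone, uncorrected read pairs with a plain mean, and bins scaled to equal totals within chromosomes. The cause was not tested where a value moved. Values are given for WT and then for the map labelled Firre KO.

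With 3 or more start sites, the insulation score was -0.98 in the map labelled Firre KO and the difference between the maps -0.45. The share of contacts over 2 Mb was 33.2% and 34.5%, the ratio over 2 Mb 1.57 and 1.53, the ratio between chromosomes 2.99 and 2.69, and the share between chromosomes 22.4% and 46.1%. With 5 or more, the share over 2 Mb was 31.4% and 33.1%, the WT ratios were 1.90 over 2 Mb and 4.04 between chromosomes, and the share between chromosomes was 24.1% and 48.6%. With 1 bin per run of neighbours, the shares were 32.7% and 34.7% over 2 Mb, and 23.0% and 47.2% between chromosomes.

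In uncorrected read pairs, insulation was -0.26 and -0.66, the share over 2 Mb 31.6% and 32.6%, the ratio over 2 Mb 2.14 and 2.51, the ratio between chromosomes 4.56 and 4.70, and the share between chromosomes 23.8% and 45.9%. Uncorrected read pairs with a plain mean gave insulation of -0.090 and -0.35, a difference of -0.33 and 12% of members at a boundary in WT, against 10.6% of all bins. In that setting the WT median of all bins was -0.10, just below that of members. Scaling to equal totals within chromosomes gave insulation of -0.36 and -0.63, a difference of -0.27, shares over 2 Mb of 31.4% and 31.9%, and ratios over 2 Mb of 2.04 and 2.48.

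Without family bins, the share over 2 Mb was 31.7% and 33.7%, the ratio between chromosomes 4.14 and 3.67, and the share between chromosomes 23.6% and 48.0%. Without bins of predicted genes, the WT values were 32.1% over 2 Mb, a ratio of 1.87 over 2 Mb and 23.0% between chromosomes. In the middle GC range, where partners were restricted too, the share over 2 Mb was 15.2% and 16.2% (all bins of that range 14.8% and 14.1%), the ratio over 2 Mb 1.35 and 1.54, the ratio between chromosomes 1.89 and 2.02, and the WT share between chromosomes 23.2%. Without the first and last 5 Mb of chromosomes, the shares were 31.8% and 33.5% over 2 Mb, and 22.5% and 47.0% between chromosomes.

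A square of 6 bins gave insulation of -0.19 and -0.53, a difference of -0.31 and 14.6% of members at a boundary in both maps. A square of 24 bins gave -0.76 and -1.44, a difference of -0.79, and boundaries at 11.3%, 13.3% and, in both, 4.10%. The plain mean gave -0.32 and -0.71, with a difference of -0.39. Boundaries in the same bin were 5.69%, 7.02% and, in both, 1.67%. Over 5 Mb the share was 27.1% and 28.7% and the ratio 2.05 and 2.32, and over 10 Mb the ratio was 2.02 and 2.40. The median over autosomes was 1.53 and 2.01, and that over chromosome pairs 3.36 and 3.13. Expected values from bin totals gave 2.24 and 2.19. Contacts at least 2 bins away gave shares between chromosomes of 26.5% and 52.1%.

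Depth limits the values of single bins and of chromosome pairs, which rest on a few read pairs each.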
